A study of Caenorhabditis elegans with 3 samples.

Results

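Called peaks of the zinc finger protein BED-3 were examined at 7 heterochronic genes of Caenorhabditis elegans: lin-14, lin-28, lin-29, lin-41, lin-46, hbl-1 and daf-12. The genes were chosen by name, with earlier results of these data known, as 7 of the 19973 nuclear protein-coding genes of the annotation. A peak was assigned to a gene when its summit lay between 5000 bp upstream of the first annotated 5′ end and the 3′ end, and the 7 windows together span 122344 bp. These windows held 1 of the 589 peaks of the optimal list, 56 of the 30000 of the pooled list, and 52 of 26338, 53 of 29455 and 50 of 30000 in the lists of replicates 1, 3 and 4. The pooled and replicate lists reach down to entries with little statistical evidence, so their counts are not counts of significant peaks.

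Chromatin immunoprecipitation with sequencing was done on whole mixed-stage embryos, obtained by egg bleaching, with an age given as 4 hour and both sexes pooled. The only group is strain OP651, mutant for unc-119(tm4063) and carrying the transgene wgIs651. It combines bed-3::TY1::EGFP::3xFLAG with unc-119(+). This is 1 transgenic line, in which tagged bed-3 is an added gene copy and unc-119(+) is the rescue marker, and it provided 3 biological replicates, numbered 1, 3 and 4. An anti-GFP antibody was used per the sample descriptions, sonicated fragments had a size range of 200 to 800 bp, and all lists share 1 control alignment. No untagged precipitation was analysed here, so a called peak may or may not mark BED-3 itself. Whole embryos hold many cell types, and a site occupied in few cells cannot be told apart from one occupied weakly in many.

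The heterochronic pathway sets which cell division pattern larval tissues, above all the epidermal seam cells, carry out at each larval stage. Early-acting proteins such as LIN-14, LIN-28 and HBL-1 are removed in turn by microRNAs including lin-4, let-7 and the let-7 relatives, which allows later fates up to the adult cuticle programme driven by LIN-29. BED-3 itself is known from vulval and epidermal cell divisions and from moulting.

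A single member, lin-14, carried an optimal peak, whereas every member had peaks in the pooled and in each replicate list. Among all nuclear coding genes, 5.01% had an optimal summit in the same kind of window, and among the 10702 coding genes with windows no shorter or longer than those of the members the share was 6.13%. The count of 1 optimal peak lay close to the 0.695 that the summed window length gives at the mean nuclear density of that list. The share of members with an optimal peak thus rests on 1 peak and is not read as a difference from other genes. The pooled list held 4.58 summits per 10 kb of member window, against a mean of 2.85 over all coding genes and 3.09 over those of similar window length. The signal, the authors' own peak value, had a median of 42.6 for the 56 pooled peaks and 39.2 for all nuclear pooled peaks.

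**Figure D1:**
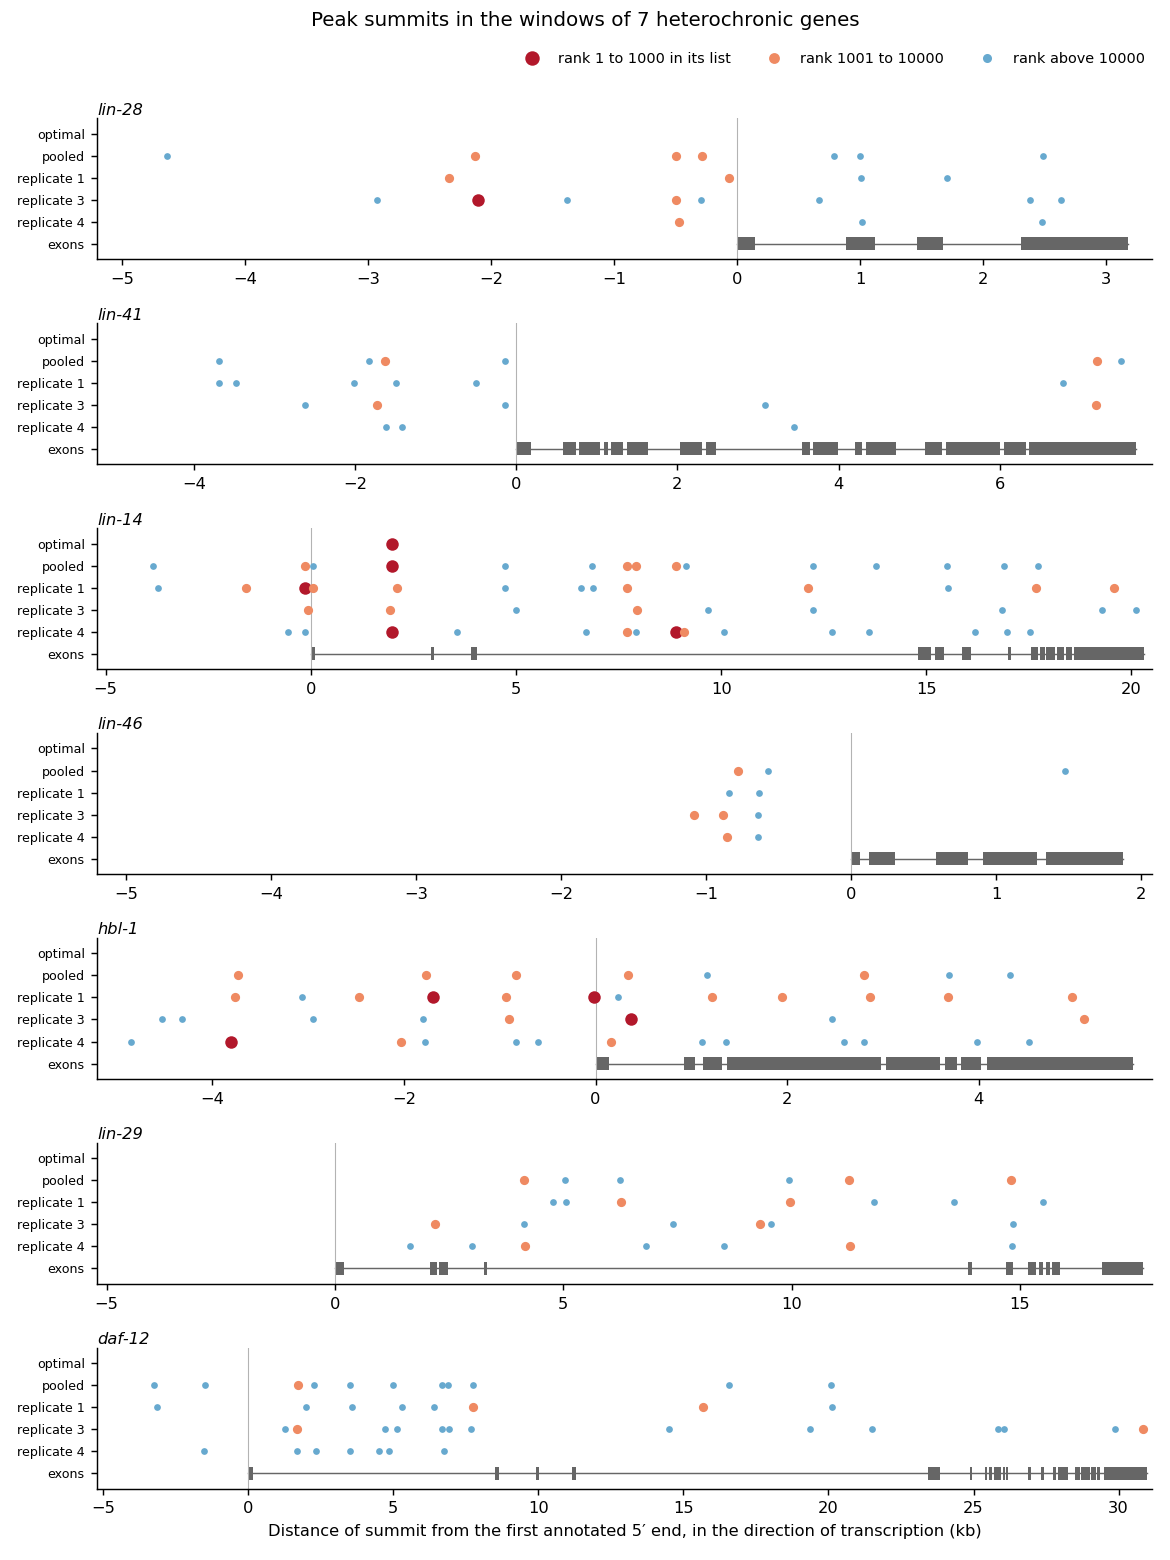
Summits in the windows of the 7 genes. Each row of points is a peak list, the horizontal axis is the distance from the first annotated 5′ end in kb along the direction of transcription, and colour and size give the rank class by signal within the list. Grey blocks are annotated exons. A point in the optimal row is present at lin-14, in an intron, and no summit lies upstream of lin-29 in any list.

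The sequences under the named peaks are shown because they locate the regions the results turn on. Each runs from 50 bases before the pooled summit to 50 bases after it, on the plus strand of ce11, with the 11 bases around the summit in capitals. The first pair belongs to lin-14 (the optimal peak at chrX:11467477-11467577 and the promoter peak at chrX:11465359-11465459). The second pair belongs to hbl-1 (the strongest peak at chrX:5818357-5818457 and a peak found in every replicate at chrX:5820320-5820420). The last is the strongest peak of daf-12 at chrX:10637575-10637675.
lin-14 intron: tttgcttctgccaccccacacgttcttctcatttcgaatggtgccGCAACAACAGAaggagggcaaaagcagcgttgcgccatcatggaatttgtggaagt
lin-14 promoter: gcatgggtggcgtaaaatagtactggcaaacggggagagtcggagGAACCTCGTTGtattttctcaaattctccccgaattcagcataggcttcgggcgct
hbl-1 far upstream: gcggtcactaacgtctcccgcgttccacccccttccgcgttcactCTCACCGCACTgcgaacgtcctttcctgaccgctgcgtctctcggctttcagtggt
hbl-1 upstream: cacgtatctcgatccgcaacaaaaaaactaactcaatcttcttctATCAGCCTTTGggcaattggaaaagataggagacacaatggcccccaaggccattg
daf-12 intron: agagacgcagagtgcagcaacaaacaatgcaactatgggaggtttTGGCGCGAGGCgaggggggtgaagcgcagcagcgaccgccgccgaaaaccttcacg

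The GC content of these windows was 50.5% and 51.5% at lin-14, 62.4% and 44.6% at hbl-1 and 60.4% at daf-12. Over the 56 pooled summits of the members the median was 43.1%, and over all 29980 nuclear pooled summits it was 37.6%. All 66 of the 36-base fragments of each of these 5 windows occurred once in the genome, a check added after seeing the data.

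lin-14 encodes a nuclear protein that promotes early larval fates and whose messenger RNA is a target of the lin-4 microRNA. The gene (WBGene00003003, X 11465560 to 11485871, plus strand) held 13 summits in replicate 1, 9 in replicate 3 and 15 in replicate 4, a mean of 12.3 ± 3.06 (SD, n = 3). All 3 counts lay above the number expected at the mean density of chromosome X, which was 6.14, 7.35 and 6.06 in the same order. The share of coding genes with a summit density at or above that of lin-14 was 11.2% in replicate 1, 32.2% in replicate 3 and 11.7% in replicate 4, so many genes reached the same density.

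The optimal peak of lin-14 (X 11467299 to 11467754) had a signal of 144 and rank 461 in both the optimal and the pooled list, where the lowest optimal signal was 122. Its summit at 11467527 lies in an intron, 1967 bp downstream of the first 5′ end and 3 bp inside the 5′ end of the non-coding RNA gene T25C12.7, which runs on the minus strand from 11467176 to 11467530. Without a transcript measurement, the peak cannot be assigned to either gene. In replicate 4 a summit with a signal of 95.2 and rank 347 lay 0 bp away. In replicate 3 the nearest summit lay 34 bp away with a signal of 27.5 and rank 1689. In replicate 1 it lay 139 bp away with a signal of 22.5 and rank 3933, beyond the 100 bp used as the match distance. The peak therefore ranked highest in replicate 4 and had no match in replicate 1 at that distance. The optimal list was derived from replicates 3 and 4 together with the pooled list, per the deposited file listing, and replicates contribute reads to the pooled list, so these are not independent observations.

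A second lin-14 place, directly upstream of the first 5′ end, recurred in all 3 replicates. The pooled summit at 11465409 (position -151 bp from the 5′ end, negative meaning upstream) had a signal of 73.2 and rank 2147. The summits lay 3 bp away in replicate 1 (signal 33.1, rank 842), 70 bp away in replicate 3 (signal 18.7, rank 8193) and 2 bp away in replicate 4 (signal 17.7, rank 28978). Position recurred while rank did not, since the same place was among the 1000 highest peaks of replicate 1 and near the end of the list of replicate 4. The nearest annotated 5′ end was that of the non-coding RNA gene T25C12.8, at -104 bp. The summit is upstream of both starts and cannot be assigned to lin-14 rather than to T25C12.8. The pooled peak of lin-14 that ranked next after the optimal one, at 11474449 in a later intron (signal 91.6, rank 1079), had a summit within 100 bp in replicate 4 alone (2 bp, rank 380), and it is named here after its values were seen. Of the 15 pooled summits of lin-14, 11 lay in introns, 2 upstream, 1 in a coding exon and 1 in a 5′ UTR exon.

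hbl-1 encodes a hunchback-like zinc finger transcription factor that promotes early larval fates and is regulated by let-7 family microRNAs. The gene (WBGene00001824, X 5822142 to 5827755, plus strand) held 12 summits in replicate 1, 8 in replicate 3 and 13 in replicate 4, a mean of 11 ± 2.65 (SD, n = 3). The density of chromosome X gives 2.58, 3.08 and 2.54 summits in a window of this length. All 3 replicates were above those values, and the gene was the densest member in replicates 1 and 4. The share of coding genes at or above its density was 0.105% in replicate 1, 2.74% in replicate 3, 0.225% in replicate 4 and 5.38% in the pooled list, where it held 8 summits.

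The peaks of hbl-1 were spread over its upstream region and its body, and none reached the optimal list. The strongest, at 5818407 (X 5818179 to 5818634, position -3735 bp), had a pooled signal of 90.9 and rank 1103. Summits lay 24 bp away in replicate 1 (rank 2354) and 71 bp away in replicate 4 (rank 842), and the nearest in replicate 3 was 584 bp away. This place was therefore recurrent in 2 of the 3 replicates. The nearest annotated 5′ end was that of the non-coding RNA gene F13D11.14, at -174 bp. The pooled summit and those of replicates 1 and 4 lie inside another non-coding RNA gene, F13D11.21. The peak cannot be assigned to hbl-1 rather than to these genes.

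A pair of hbl-1 places was found in every replicate. The pooled summit at 5820370 (position -1772 bp, signal 86.8, rank 1273) had summits 79 bp away in replicate 1, 31 bp away in replicate 3 and 4 bp away in replicate 4. Their ranks were 744, 28440 and 13185. Rank again differed between the lists: the place was high in replicate 1, near the end in replicate 3 and nearer the middle in replicate 4. The pooled summit at 5821309 (position -833 bp, signal 49.5, rank 7928) had summits 97, 68 and 0 bp away, at ranks 3441, 7992 and 16121. The nearest annotated 5′ ends were those of the non-coding RNA genes F13D11.20, 303 bp away, and F13D11.8, 725 bp away. The pooled summit at 5822484 (342 bp inside the gene, signal 79.1, rank 1694) had a summit 32 bp away in replicate 3 (rank 448), whereas the nearest in replicates 1 and 4 were 109 and 179 bp away. Those of replicates 1 and 4, at 5822375 (rank 23761) and 5822305 (rank 5460), lay 70 bp from each other and so matched between these lists. That pooled peak is named after its values were seen.

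lin-46 encodes a gephyrin-like protein that acts downstream of lin-28 in the succession of larval fates. The gene (WBGene00003031, V 12968855 to 12970730, plus strand) has the shortest window, 6876 bp, which held 2, 3 and 2 summits in replicates 1, 3 and 4 (mean 2.33 ± 0.577, SD, n = 3). At the density of chromosome V the window would hold 1.62, 1.84 and 1.66, so the counts were above the chromosome's level by little more than 1 summit at most. Both summits of replicates 1 and 4 had a counterpart in all 3 replicates, as did 2 of the 3 of replicate 3. At a first place the replicate summits were 12968011, 12967972 and 12967998, a spread of 39 bp, with ranks 23563, 4628 and 2394. At a second place they were 12968217, 12968208 and 12968213, a spread of 9 bp, with ranks 26298, 14658 and 13696. The other summit of replicate 3, at 12967772 (signal 22.6, rank 4028), was its highest of the gene and had no match, with the nearest summits 239 bp away in replicate 1 and 226 bp away in replicate 4. The spread of 9 bp was the smallest among the 5 member places that had a summit in all 3 replicates, where it ranged up to 110 bp.

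The pooled summits beside these places were displaced from the replicate summits. The strongest pooled peak of lin-46 (V 12967845 to 12968300, summit 12968073, position -782 bp, signal 81.2, rank 1570) lay 62 bp from the summit of replicate 1 and 75 bp from that of replicate 4. The summit of replicate 3 was 1 bp beyond the match distance of 100 bp. The second pooled summit, 12968277 (position -578 bp, signal 35.9, rank 18508), lay 60, 69 and 64 bp from those of replicates 1, 3 and 4. Both pooled summits were also closer to a neighbour than to lin-46. The strongest lay at -91 bp and the second at -295 bp from the 5′ end of R186.8, a protein-coding gene on the minus strand at 12967308 to 12967982. At the first place the summits of replicates 1, 3 and 4 lay -29, 10 and -16 bp from that 5′ end. Neither place can be assigned to lin-46 rather than to R186.8. Part of the sequence is repeated in the genome. Of the 66 fragments of 36 bases in the window of 50 bases on either side of the summit, 37 (56.1%) occurred once and the most frequent had 23 copies, and at the second summit 62 (93.9%) occurred once. The part of repeated sequence in the height or position of these peaks was not tested. The window is shown with both matches to TGATAA, the GATA-type motif searched on either strand, in capitals (chrV:12968023-12968123, plus strand).
lin-46 upstream: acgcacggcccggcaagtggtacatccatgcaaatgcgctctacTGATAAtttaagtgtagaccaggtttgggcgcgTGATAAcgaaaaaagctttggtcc

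lin-29 encodes the zinc finger transcription factor that drives the larval-to-adult switch in the epidermis. The gene (WBGene00003015, II 11917642 to 11935343, minus strand) held 7, 6 and 7 summits in replicates 1, 3 and 4 (mean 6.67 ± 0.577, SD, n = 3), against 6.55, 6.9 and 7.01 at the density of chromosome II. The counts were thus at the level of the chromosome in each replicate. All 6 pooled summits were inside the gene, 5 in introns and 1 in a coding exon. The strongest (II 11923851 to 11924306, summit 11924079, 11264 bp from the first 5′ end) had a signal of 56.4 and rank 5176. It had a summit 10 bp away in replicate 4 (rank 2617), while the nearest were 550 bp away in replicate 1 and 1712 bp away in replicate 3. The nearest annotated 5′ end was that of the non-coding RNA gene Y17G7A.2, at -1332 bp.

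The intronic sequence of that lin-29 peak is made of TTAGGC-like units, the letters of the worm telomere repeat. It holds 6 exact matches on either strand, shown in capitals (chrII:11924029-11924129, plus strand), and each of its 66 fragments of 36 bases occurred once in the genome. A weaker lin-29 peak at 11930309 (signal 31.4, rank 24224) held 9 matches, with 55 of 66 fragments (83.3%) occurring once. This motif was added after seeing the data. It was present in 3 of the 56 member windows (5.36%) and in 4.77% of all nuclear pooled windows, so windows with it were about as common among the members as in the whole list.
lin-29 intron: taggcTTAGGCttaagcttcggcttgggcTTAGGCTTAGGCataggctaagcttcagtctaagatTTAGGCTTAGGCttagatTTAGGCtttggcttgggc

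daf-12 encodes the nuclear hormone receptor for dafachronic acids, which links nutrition to larval timing and dauer formation. The gene (WBGene00000908, X 10635908 to 10666875, plus strand) has the longest window, 35968 bp, with 8, 14 and 7 summits in replicates 1, 3 and 4 (mean 9.67 ± 3.79, SD, n = 3). At the density of chromosome X these would be 8.73, 10.5 and 8.61, so 2 of the 3 replicates were below it and the spread between replicates was large. The strongest pooled peak (X 10637397 to 10637852, summit 10637625, in an intron 1717 bp from the first 5′ end) had a signal of 50.4 and rank 7491, the lowest among the strongest peaks of the 7 genes. Summits lay 47 bp away in replicate 3 (rank 7421) and 35 bp away in replicate 4 (rank 11309), and the nearest in replicate 1 was 275 bp away. Of the 11 pooled summits, 9 were intronic and 2 upstream, and 0 were found in every replicate.

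lin-28 encodes an RNA-binding protein that blocks the maturation of let-7. The gene (WBGene00003014, minus strand) spans 8407630 to 8410804 of chromosome I. It held 4 summits in replicate 1, 8 in replicate 3 and 3 in replicate 4, a mean of 5 ± 2.65 (SD, n = 3). The chromosome's density gives 2.48, 2.76 and 2.92, so all 3 counts were above it, by the most in replicate 3 and by the least in replicate 4. The share of coding genes at or above the density of lin-28 was 0.411% for replicate 3, 30.6% for replicate 4 and 13.3% for replicate 1. In the pooled list, where lin-28 held 7 summits and was the densest member, that share was 2.91%. The density of lin-28 thus differed widely between the replicate lists.

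The 3 strongest pooled peaks of lin-28 were upstream of it and nearly equal in signal. The strongest had its summit at 8411090 (peak 8410862 to 8411317, position -286 bp, signal 58.7, rank 4522), 5 bp from a summit of replicate 3 at rank 13939, with the nearest summits of replicates 1 and 4 at 223 and 184 bp. The others, named after their values were seen, were at 8412932 (signal 58.2, rank 4672) and 8411301 (signal 57.8, rank 4796). The first of these lies inside the neighbouring coding gene F02E9.7 and, with rank 614, its counterpart 22 bp away in replicate 3 was the highest place of lin-28 in any list. The other was matched in replicate 3 (0 bp, rank 8163) and replicate 4 (27 bp, rank 4762). No lin-28 place was found in every replicate.

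lin-41 encodes a TRIM-NHL RNA-binding protein whose messenger RNA is a target of let-7. The gene (WBGene00003026, minus strand, 9334800 to 9342496 of chromosome I) held 6, 5 and 3 summits in replicates 1, 3 and 4 (mean 4.67 ± 1.53, SD, n = 3), against 3.85, 4.28 and 4.54 at the density of its chromosome. The counts were on both sides of that level. The strongest pooled peak was upstream (9343900 to 9344355, summit 9344128, position -1632 bp, signal 60.0, rank 4230). Summits lay 9 bp away in replicate 4 (rank 29208) and 99 bp away in replicate 3 (rank 5831), and 139 bp away in replicate 1 (rank 22350). Replicate 4 had a higher summit at 9343913 (signal 28.3, rank 10472), inside the same pooled peak but beyond the match distance of 100 bp. The low rank in replicate 4 thus belongs to the nearest summit only, and the summit of replicate 1 was not a match. Of the 6 pooled summits, 4 were upstream and 2 in the 3′ UTR, and none was found in every replicate.

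**Figure D2:**
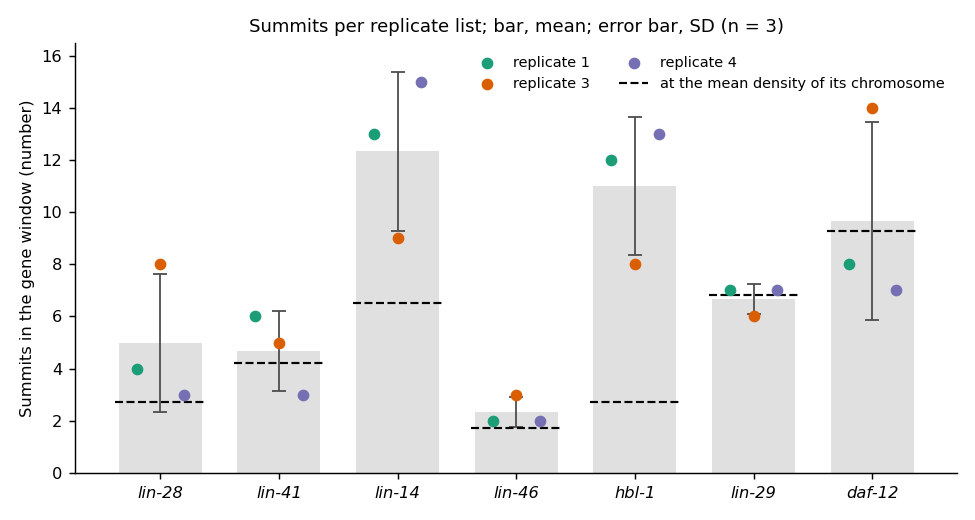
Number of summits in each gene window per replicate list. Points are the replicate lists, bars their mean and error bars the SD (n = 3), and dashed lines the mean number expected from the density of the gene's chromosome. For lin-14, hbl-1, lin-28 and lin-46 all points lie above the dashed line, by less than 1 summit for some points of lin-28 and lin-46. For daf-12, lin-29 and lin-41 the points lie on both sides of it.

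The order of the members by mean summit number followed window length only in part, because hbl-1 with 10614 bp held more than daf-12 with 35968 bp in replicates 1 and 4. Summed over the 7 windows, the counts were 52, 53 and 50, a mean of 51.7 ± 1.53 (SD, n = 3), and the nuclear density gives 32.1, 35.9 and 36.6 for replicates 1, 3 and 4. Median signal in the windows was 17.1, 15.7 and 24.1, beside 16.0, 15.4 and 24.7 for all nuclear peaks of the same lists. Summed, the windows thus held more summits than the nuclear mean in every replicate, and their signals lay near the median of each list. The excess was not shared by all 7 genes. In replicates 1 and 4 most of it came from hbl-1 and lin-14. hbl-1 held 12 and 13 there, against 2.58 and 2.54 at its chromosome's density, and lin-14 held 13 and 15, against 6.14 and 6.06. Counts of lin-29, lin-41 and daf-12 lay on both sides of their chromosome's level. Of the 3 genes on chromosome X, daf-12 did not share the high counts of lin-14 and hbl-1. The median GC content of the member windows was above that of the list, as given above, and its part in these counts was not tested.

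The number of member summits among the higher ranks depended on the list and on how far down it was read. Among the 1000 highest pooled peaks 1 fell in a member window, and among the 5000 highest 13 did, where the nuclear density gives 1.2 and 6.08. Among the 5000 highest of replicates 1, 3 and 4 there were 12, 7 and 10, against 6.07, 6.07 and 6.08. Among the 10000 highest there were 24, 16 and 11, against 12.2 in each, so replicate 4 was below that number. At the size of the optimal list, the 589 highest, there were 0, 1 and 2, against 0.688, 0.689 and 0.698. Among the 1000 highest there were 3, 2 and 3, against 1.19, 1.19 and 1.2. The last belonged to lin-14 and hbl-1 in replicates 1 and 4 and to hbl-1 and lin-28 in replicate 3. hbl-1 was the only member among the 1000 highest of all 3 replicates, at ranks 744 and 965 in replicate 1, 448 in replicate 3 and 842 in replicate 4, each at a different position.

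**Figure D3:**
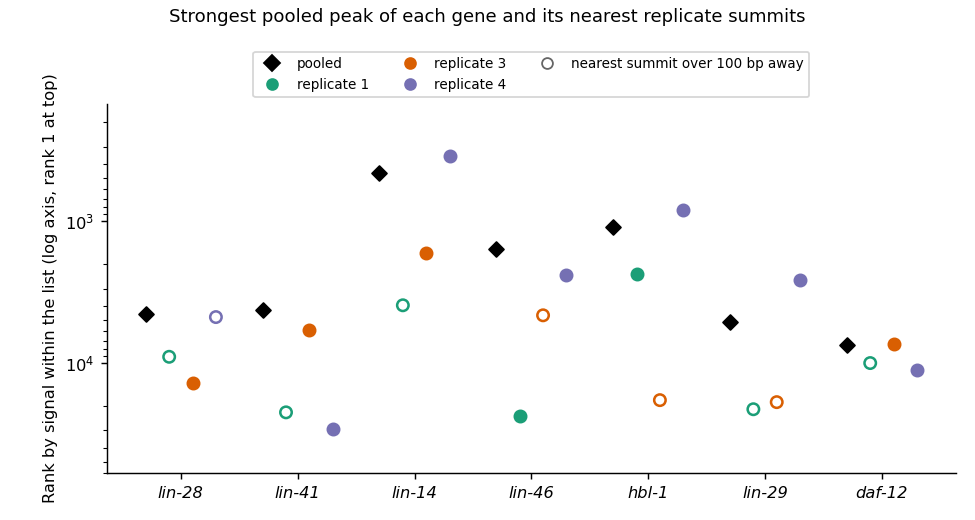
Rank by signal, on a log axis with rank 1 at the top, of the strongest pooled peak of each gene (diamonds) and of the nearest summit in each replicate list (circles). Open circles are nearest summits more than 100 bp away. For no gene are all 3 circles filled, and at lin-14 the filled circles are replicates 3 and 4 at ranks 1689 and 347.

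Recurrence of position between replicates was limited for the members as it was for the whole lists. Of the 56 pooled summits in member windows, 4 (7.14%) had a summit within 100 bp in every replicate, where 5.3% of all nuclear pooled summits did. They were the place directly upstream of lin-14, the 2 hbl-1 upstream places and the second lin-46 place. A further 17 were matched in 2 replicates, 25 in 1 and 10 in none. By replicate, 23 (41.1%) were matched in replicate 1, 22 (39.3%) in replicate 3 and 26 (46.4%) in replicate 4, beside 32.1%, 31.8% and 51.9% of all nuclear pooled summits. The share of 7.14% rests on 4 peaks and lies near the background.

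Between replicate lists, which do not share precipitated reads, the shares depended on the pair. Of the 52 member summits of replicate 1, 5 (9.62%) had a summit within 100 bp in replicate 3, where 14.8% of all nuclear summits of that list did, and 12 (23.1%) had one in replicate 4, where 18.2% did. Of the 53 of replicate 3, 5 (9.43%) were matched in replicate 1, beside 13.2%, and 13 (24.5%) in replicate 4, beside 16.6%. Of the 50 of replicate 4, 12 (24%) were matched in replicate 1, beside 15.9%, and 13 (26%) in replicate 3, beside 16.3%. Member shares were thus above the background in the pairs with replicate 4 and below it between replicates 1 and 3. Of the same 50, 5 (10%) were matched in both other replicates, beside 4.96% of the list. A window of 201 bp holds on average over the nuclear genome 0.0527, 0.059 and 0.0601 summits of replicates 1, 3 and 4, so some matching follows from the density of the lists. The member windows were denser than that mean. They held 4.25, 4.33 and 4.09 summits per 10 kb in replicates 1, 3 and 4, against 2.62, 2.94 and 2.99 over the nuclear genome. More matching from density is thus to be counted on there, and its part in the member shares was not tested.

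**Figure D4:**
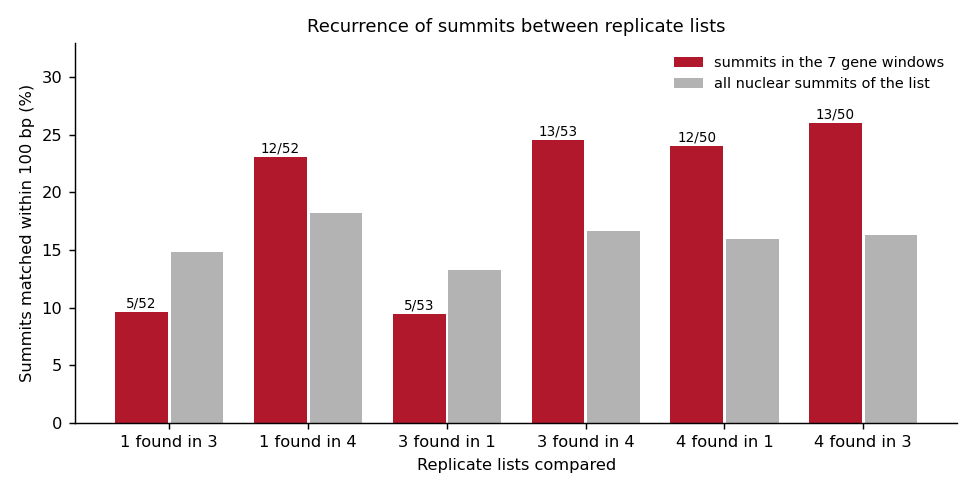
Share of the summits of 1 replicate list with a summit of another within 100 bp, in percent, for the summits in the 7 gene windows and for all nuclear summits. Numbers above the bars are matched over all member summits. The member bars are higher than the grey bars in the 4 comparisons with replicate 4 and lower in the 2 between replicates 1 and 3. Each pair of lists appears in both directions, which count largely the same matches, so the 4 comparisons are 2 pairs.

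By position, 27 of the 56 pooled summits (48.2%) lay in introns, 17 (30.4%) upstream, 7 (12.5%) in coding exons, 3 in 3′ UTR exons and 2 in 5′ UTR exons. Within 1000 bp upstream to 200 bp downstream of an annotated 5′ end of any coding gene there were 14 (25%), beside 29.5% of all nuclear pooled summits. The members' summits were therefore not more often at promoters than those of the whole list. The 4 preset motifs were chosen with earlier results of these data known. They were searched on both strands in the same windows of 50 bases on either side of the summit. GCGCGC occurred in 3 member windows (5.36%, beside 1.87% of all nuclear pooled windows). GAGAGA occurred in 6 (10.7%, beside 7.15%), TGATAA in 4 (7.14%, beside 6.60%) and CACGTG in 1 (1.79%, beside 1.69%). These counts are too small to read a difference from.

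The other 26 genes of the pathway, its microRNAs, cofactors and targets, were described in the same way. Of these, 3 (11.5%) had an optimal summit, beside the 5.01% of all coding genes, with 4 peaks where their windows, with overlaps merged, give 1.61 at the nuclear density. The 26 include microRNA genes and a long non-coding RNA gene, so the coding genes are not a like set. The share rests on 3 genes and is not read as a difference from other genes. kin-20, a casein kinase homologue that acts with lin-42, had the highest signal of all 33 genes, 187 (rank 305), at an intronic summit 11 bp from the 5′ end of the non-coding RNA gene F46F2.12. It was matched at 1 bp in replicate 1 and 25 bp in replicate 4, and the nearest summit of replicate 3 was 104 bp away. ain-1, a GW182-type cofactor of the microRNA complex, had a peak at -925 bp (signal 140, rank 481) that was matched in all 3 replicates at 60, 91 and 41 bp. din-1, a corepressor partner of DAF-12, had an intronic peak (signal 140, rank 482) at -68 bp from an annotated internal 5′ end of din-1 and within a snoRNA gene, F07A11.15, and a non-coding RNA gene. That peak was matched at 6 bp in replicate 3 and 7 bp in replicate 4, and the nearest summit of replicate 1 was 172 bp away. din-1 also had a peak at -2418 bp (signal 128, rank 555) matched in all 3 replicates at 43, 0 and 58 bp, where the nearest 5′ end was that of the snoRNA gene ZK20.9.

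The pooled list held 144 distinct summits in the windows of these 26 genes (5.09 per 10 kb), of which 12 (8.33%) were found in every replicate, beside 5.3% of all nuclear pooled summits. The median of their strongest signals was 71.7, beside 60.0 for the 7 members. The 5 microRNA genes of the list are named after their values were seen. let-7 had an upstream peak at -1833 bp with a signal of 106 and rank 779 that was matched in all 3 replicates. The 5′ end nearest to that peak was that of another gene, C05G5.2. mir-48 and mir-241 shared 1 strongest peak (signal 62.9, rank 3611), since their windows overlap, and the 5′ end nearest to it was that of F56A12.10. mir-84 had 4 pooled summits, the strongest with a signal of 40.7 and rank 13696, matched in 1 replicate. The window of lin-4 held 0 pooled summits and 1 summit of replicate 4.

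**Figure D5:**
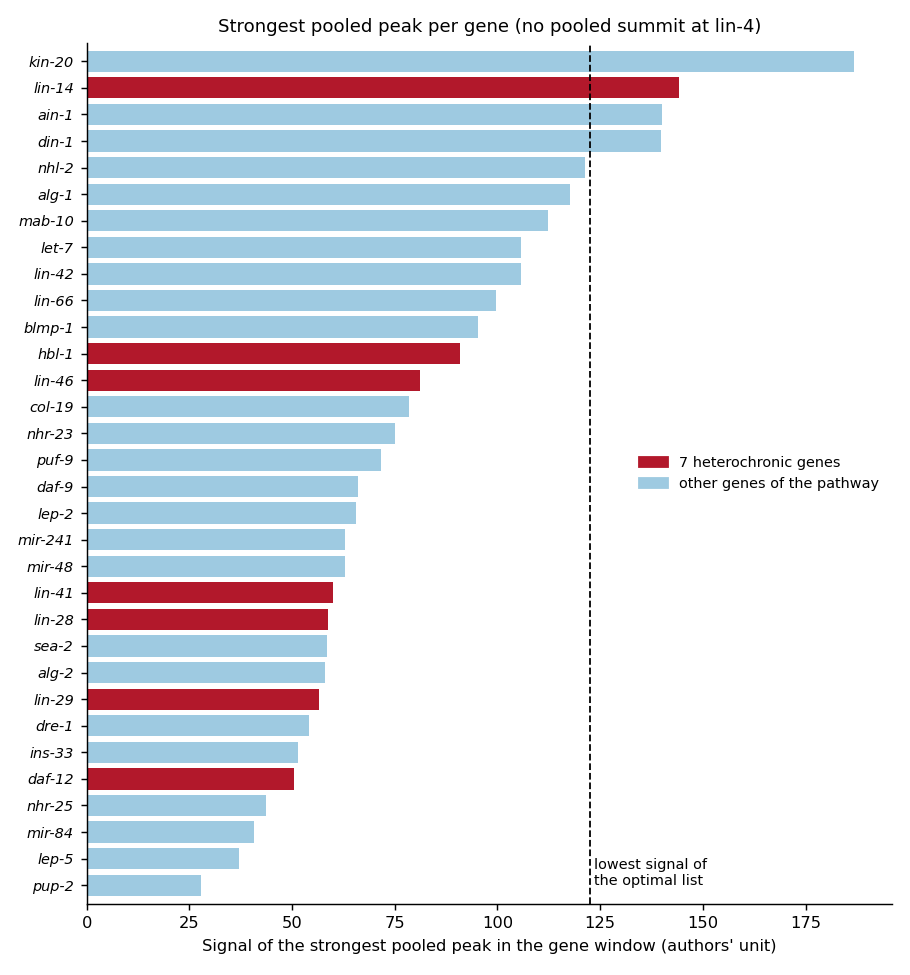
Signal of the strongest pooled peak in the window of each gene, in the authors' unit, for the 7 heterochronic genes (red) and the other pathway genes (blue). The dashed line is the lowest signal of the optimal list, 122, and kin-20, lin-14, ain-1 and din-1 lie above it. lin-4 has no pooled summit and no bar.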

How the data were processed

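Peak lists were the deposited narrowPeak files of 3 replicates, their pooled list and the optimal list, in ce11 per the labels. For the aligner and the program that called peaks, the sources used here give no name. The deposited signal (column 7) comes from the authors' peak calling and was used as a value, a median or a rank inside a list; optimal peaks carry the signal they have in the pooled list. The −log10 q deposited by the authors was constant over the optimal peaks, at 2.49, and was not used. It went down to 0.0853 in the pooled list and to 0.0177, 0.0178 and 0.0665 in replicates 1, 3 and 4. These longer lists thus include entries with little statistical evidence, and counts from them are not counts of significant peaks. Per the deposited file listing, the optimal list derives from replicates 3 and 4 and the pooled list. The listing names the list of replicate 1 as peaks and those of replicates 3 and 4 and the pool as peaks with background, so the replicate lists may differ in stringency. The deposited summit offset gave positions, counted from 1. Read depth was not analysed here, so precision comes from the number of peaks and replicates.

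Gene models were those of Ensembl release 115 (WBcel235, the ce11 assembly), and sequences were read from the RefSeq FASTA of the same assembly. Scripts used Python 3.11.15, pandas 2.3.3 and numpy 2.4.6, and window assignment and matching were tested on simulated data. No test between groups was made, because the series has 1 group.

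The members, gene lists and motifs were chosen with earlier results of these data known. Named peaks are the optimal peaks, the strongest pooled peak of each member, up to 3 more found in every replicate, other pathway genes with an optimal peak or among the 3 highest pooled signals, and the neighbours nearest to them. Alternatives varied windows, list depth, match distance and replicates.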

Additional observations from a re-analysis of the deposited data

How the results depend on the processing

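Over 6 results and 11 alternative settings, 27 counts were recomputed and 13 stayed within 1.5 times the main value, among them those for upstream reaches of 2000 bp and windows ended at the next coding gene. The optimal peak at lin-14, and with it the number of members with an optimal peak, went from 1 to 0 in the upper part of the optimal list. The optimal list was not derived again with a replicate left out. Instead the peak was kept if it had a summit within 100 bp in each remaining replicate, which the main count does not ask. The count was then 1 without replicate 1, 0 without replicate 3 and 0 without replicate 4. Both values of 0 follow from that criterion, because the peak has no summit of replicate 1 within 100 bp. They do not show that the optimal peak depends on replicate 3 or 4. The 56 pooled summits became 20 among the 10000 highest pooled peaks. The 4 summits found in every replicate became 0 within 50 bp, 8 within 200 bp (14.3%) and 19 by any overlap of intervals, where 2.07% of all nuclear pooled summits were found within 50 bp and 11.2% within 200 bp. Leaving out a replicate gave between 5 and 13: 13 without replicate 1, 11 without replicate 3 and 5 without replicate 4. Fewer lists to match leaves more matches by construction. Matches between replicate lists were 60 over 310 ordered comparisons, with each pair of lists taken in both directions. They became 38 within 50 bp and 5 against the 1000 highest peaks of the other list. For the interval overlap, the left-out replicates and these last counts, the share over all nuclear peaks was not computed. Those counts are therefore not read as a result about the members. No paired analysis was possible because the series has 1 group. The deposited lists give no reads per site, so low peaks cannot be given a counting error.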
